A study of Mus musculus with 24 samples.

Results

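Of 63188 regions of open chromatin mapped in mouse skin stem cells, 1233 (1.95%) had a peak at days 7 and 80 after a full-thickness wound and none in unwounded skin or in partial-thickness wounds at day 80. They were chosen from the peaks themselves. All 8 deposited ATAC-seq peak lists were joined wherever peaks overlapped, and a list held a joined region if any of its peaks shared 1 bp with it. A region entered the set when both full-thickness lists (days 7 and 80) held it and 4 other lists did not: the day 0 hair follicle list, the day 0 and day 80 epidermal lists of unwounded skin, and the day 80 partial-thickness list. The partial-thickness lists of days 3 and 7 played no part in the choice.

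ATAC-seq marks accessible DNA by the cuts of a transposase, here in cells sorted from the skin of CD1 x C57BL/6J cross mice, with 24 samples in 8 groups. Krt19-CreER/R26-YFP mice gave 6 groups: unwounded hair follicle stem cells of day 0 (n = 4), unwounded epidermal stem cells of day 0 (n = 4) and of day 80 (n = 3), and cells taken 3 (n = 3), 7 (n = 2) and 80 days (n = 3) after a partial-thickness wound. Sox9-CreER/R26-YFP mice gave the cells taken 7 (n = 3) and 80 days (n = 2) after a full-thickness wound. All groups therefore carried a tamoxifen-inducible Cre, driven by the keratin 19 gene or by Sox9, and a YFP reporter at the Rosa26 locus. Both driver genes are active in the hair follicle. The labels name the full-thickness cells epidermal stem cell progeny and the partial-thickness cells hair follicle stem cell progeny. Wound depth, Cre driver and labelled cell of origin change together between the wound types, so their parts in any difference between these lists cannot be told apart.

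Skin is renewed by stem cells of the epidermis and of the hair follicle, and both can move into a wound and rebuild its surface. A partial-thickness wound removes the epidermis and the upper follicle, whereas a full-thickness wound also removes the dermis with its follicles. Wounded keratinocytes open enhancers bound by AP-1 (Fos and Jun dimers), STAT and NF-kB factors, and chromatin that stays open after repair is described as an epigenetic memory of the injury.

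Most of the 1233 regions were distal, but 65 held a transcription start site, and the promoters among them are the members whose sequence was at hand. These windows cover the 250 bases before the start site, 5′ to 3′ on the gene's strand, from RefSeq on GRCm38.p6 (the assembly of mm10). Capitals mark matches to the AP-1 motif TGANTCA, searched on both strands, and sequences without a match are in lower case throughout. The middle base N was left free, so TGATTCA, as at Cstdc3, counted beside TGACTCA and TGAGTCA. Ivl encodes involucrin, a precursor of the cornified envelope, at chr3:92573736-92573985 (minus strand). Cstdc3 encodes a cystatin-domain protein of a family of close copies, whose reads could be shared, at chr16:36305107-36305356 (plus strand). Ptpre encodes a receptor tyrosine phosphatase, at chr7:135605578-135605827 (plus strand). Gm39473 is a long non-coding RNA, at chr12:74825050-74825299 (plus strand). These 4 were picked from the 8 windows of members that hold a match, and the others are not shown. Kcnn4, a calcium-activated potassium channel, at chr7:24370013-24370262 (plus strand), and Hephl1, a copper ferroxidase of the hephaestin family, at chr9:15112109-15112358 (minus strand), are shown because their members ranked highest among those at a protein-coding start site outside a shared promoter.
Ivl: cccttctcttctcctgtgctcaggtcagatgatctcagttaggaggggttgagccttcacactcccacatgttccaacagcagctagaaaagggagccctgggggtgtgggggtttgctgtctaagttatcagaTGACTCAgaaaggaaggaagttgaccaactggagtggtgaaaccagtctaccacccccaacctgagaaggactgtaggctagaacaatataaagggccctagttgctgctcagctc
Cstdc3: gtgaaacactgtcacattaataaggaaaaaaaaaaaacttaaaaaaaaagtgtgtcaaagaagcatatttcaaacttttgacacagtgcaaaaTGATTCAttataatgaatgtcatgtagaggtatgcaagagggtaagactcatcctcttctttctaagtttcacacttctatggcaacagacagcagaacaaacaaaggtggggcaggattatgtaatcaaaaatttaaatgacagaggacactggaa
Ptpre: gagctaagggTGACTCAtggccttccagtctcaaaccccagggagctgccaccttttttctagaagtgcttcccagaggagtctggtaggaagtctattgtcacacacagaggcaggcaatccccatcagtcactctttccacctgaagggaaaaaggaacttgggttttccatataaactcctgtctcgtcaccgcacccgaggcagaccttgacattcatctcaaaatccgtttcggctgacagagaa
Gm39473: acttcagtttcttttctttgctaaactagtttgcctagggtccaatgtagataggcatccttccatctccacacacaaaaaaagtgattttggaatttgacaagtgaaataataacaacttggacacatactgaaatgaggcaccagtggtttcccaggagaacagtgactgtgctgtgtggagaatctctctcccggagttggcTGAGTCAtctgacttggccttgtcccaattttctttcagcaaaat
Kcnn4: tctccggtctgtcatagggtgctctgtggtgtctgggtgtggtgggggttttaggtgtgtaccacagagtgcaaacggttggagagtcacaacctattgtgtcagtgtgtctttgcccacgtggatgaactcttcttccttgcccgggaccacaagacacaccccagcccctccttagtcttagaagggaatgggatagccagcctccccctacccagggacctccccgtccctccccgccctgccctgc
Hephl1: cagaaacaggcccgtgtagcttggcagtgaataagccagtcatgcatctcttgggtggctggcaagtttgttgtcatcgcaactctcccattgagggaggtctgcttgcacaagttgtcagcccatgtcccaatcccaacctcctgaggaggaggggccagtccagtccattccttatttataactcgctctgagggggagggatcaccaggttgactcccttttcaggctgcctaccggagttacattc

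In these windows the AP-1 match began at position -116 for Ivl, -157 for Cstdc3, -240 for Ptpre and -45 for Gm39473, counted back from the start site with -1 as the base before it. A match is a description of letters and not a binding site. Of 84 start sites in members, 8 (9.52%, 4.2 to 17.9) had a match in the window, against 2217 of all 32851 start sites in the table (6.75%) and 708 of the 13297 inside any joined region (5.32%). The interval of the members' share covered both of those values. Start sites in day 7 full-thickness regions that were gone at day 80 had a match in 57 of 343 windows (16.6%, 12.8 to 21.0), and start sites in regions kept after both wound types in 12 of 66 (18.2%, 9.76 to 29.6). The GC-rich KLF motif GGGNGGGG was in 40 of the 84 windows (47.6%, 36.6 to 58.8), near its 44.6% over start sites in any joined region. STAT (TTCNNNGAA) was in 5 windows and the NF-kB motif in 1, or 5.95% and 1.19%, beside 5.61% and 1.41% over start sites in any joined region. TEAD (GGAATG), RUNX (TGTGGTT) and AP-2 (GCCNNNGGC) matches stood at 11.9%, 4.76% and 16.7%, beside 10.7%, 3.05% and 21.3%. Neither the GRHL motif AACCNGGTT nor the NFI motif had a match in these 84 windows. All intervals are exact Clopper-Pearson 95% intervals unless named otherwise. They cover counting error only, since regions are not replicates of a condition. The 84 windows lie in 65 members, and some windows of the same gene overlap almost fully. Their intervals treat them as independent and are therefore too narrow.

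With 1 deposited list per group, neither a spread over samples nor a test of a group difference was possible, and read depth is unknown. The lists held 29365 to 37214 peaks, and their weakest peak had a −log10 p between 7.86 and 40.19, the values being the authors'. Gaps in the peak numbers show that 32.8% to 82.5% of the numbered calls were kept, so absence from a list means that no peak passed its threshold there. The Dremel day 80 list (partial-thickness) began at 21.04 and the Punch day 80 list (full-thickness) at 7.98. Scaled to the sum of its own list, the lowest value was 10.7 for the Dremel day 80 list and 9.72 for the Punch day 80 list. Over the 8 lists these scaled values ran from 9.72 to 12.9. The day 80 thresholds thus lay much closer together on the scaled values than on the raw ones. The peak names of the day 0 epidermal list carry a control tag for day 7, a mismatch that the labels do not settle. Without that list the same rule gave 1585 regions. Of the basal keratinocyte markers, all 12 had regions. Krt14 and Krt5, the paired keratins of basal cells, had 1 to 3 and 0 to 2 in a list, and the list without one at Krt5 was the day 0 epidermal list.

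The full-thickness peaks that chose the members were of middling strength at day 7 and weak at day 80. As values used by the choice they are given without a test. In the day 7 list the member peaks had a median fold enrichment of 8.23 over local background (3.32 to 15.7) and a median percentile by score of 40.2 within their list (0.0363 to 98.1). In the day 80 list the median fold was 6.94 (3.74 to 16.1) and the median percentile 21.3 (1.63 to 88.4). At day 80, 311 members (25.2%) lay in the lowest 10% of the list and 128 (10.4%) in its upper 50%. The weakest member peak had a −log10 p of 32.25 at day 7, against 32.24 for the weakest peak of that list, and 8.02 at day 80, against 7.98. At day 80, 158 members (12.8%) had a −log10 p within 10% of the list's lowest value. Just outside the set lay regions that failed on 1 excluded list alone: 701 held by the day 80 partial-thickness list (median percentile there 22.7), 352 by the day 0 epidermal list (17.1), 248 by the hair follicle list (30.6) and 245 by the day 80 epidermal list (14.6). Member peaks had a median width of 775 bp at day 7 and 306 bp at day 80.

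**Figure D1:**
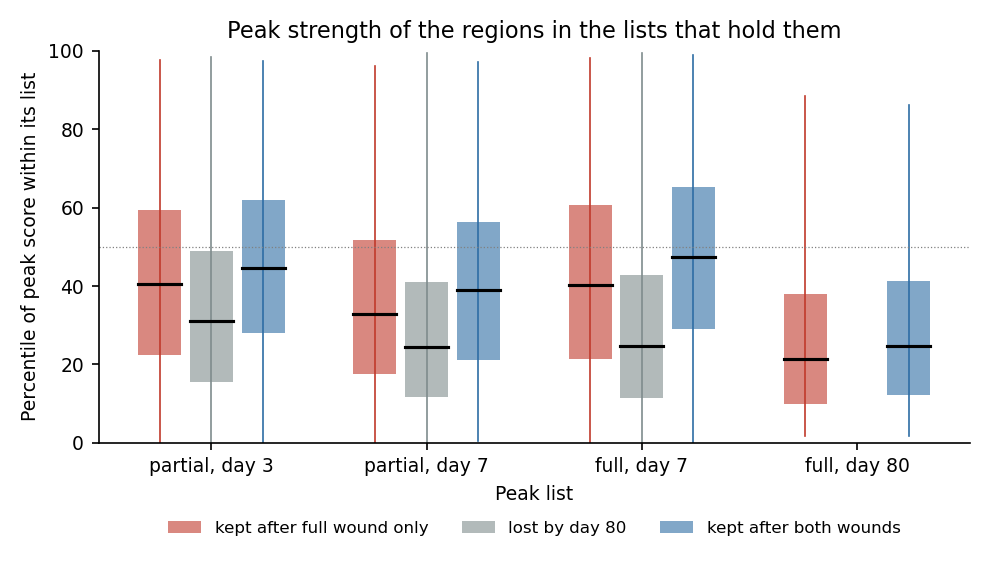
Percentile of peak score within its own list (y axis, 0 to 100) for the regions each list holds (x axis); boxes run from the 25th to the 75th percentile of regions, black lines are medians and whiskers the range. Members (red) had medians of 40.4, 32.8, 40.2 and 21.3 from left to right, above the regions lost by day 80 (grey) in the first 3 lists; lost regions have no peak in the full-thickness day 80 list.

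The summits of the member peaks, where accessibility was highest, mostly stayed in place between the days. The day 7 and day 80 summits lay within 100 bp of each other in 1069 of 1233 members (86.7%, 84.7 to 88.5), against 77.5% of all 24761 regions that both lists held. The choice used both lists, and these shares were not matched for width. Median joined widths were 861 bp in members and 951 bp in all joined regions. Against the early partial-thickness lists, which the choice did not use, the day 7 summits lay within 100 bp in 788 of 878 members held at day 3 (89.7%, 87.6 to 91.7) and in 725 of 803 held at day 7 (90.3%, 88.0 to 92.2). The same shares were 92.9% and 93.0% in regions lost by day 80 and 83.1% and 83.7% in all regions shared by the lists. Where a member was open after both wound types, it was thus mostly open at the same point.

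Most members were also listed early after the partial-thickness wound, although its day 80 list lacked them. The day 3 partial-thickness list held 878 members (71.2%, 68.6 to 73.7), against 56.6% of all joined regions. The day 7 partial-thickness list held 803 (65.1%, 62.4 to 67.8), against 55.0% of all. Both held 686 (55.6%, 52.8 to 58.4), against 46.8% of all. These baselines include regions that the day 7 full-thickness list lacked, whereas every member is in that list. Of its 36646 regions, the partial-thickness lists held 29159 at day 3 and 28087 at day 7. Both are larger shares than those of the members. Day 3 alone held 192 (15.6%), day 7 alone 117 (9.49%), and neither held 238 (19.3%, 17.1 to 21.6). In the same order the shares were 24.2%, 4.84% and 43.2% of regions lost by day 80. They were 8.7%, 9.42% and 17.1% of regions kept after both wound types. These shares are not given here over all joined regions. The 995 members in either list (80.7%, 78.4 to 82.9) were therefore seen after both wound types, and a peak at day 80 was listed after the full-thickness wound only. Either list held 56.8% of the lost regions and 82.9% of those kept after both.

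Kept regions were more often shared with the partial-thickness wound than lost ones. Of the 9077 day 7 full-thickness regions in none of the 4 excluded lists, 1233 (13.6%) were kept at day 80 and 7844 were lost, a split the choice itself made. The day 3 partial-thickness list held 52.0% of the lost regions (50.8 to 53.1), 19.3 percentage points below the members (Newcombe 95% interval 16.4 to 22.0). The day 7 partial-thickness list held 32.6% (31.6 to 33.7), 32.5 points below (29.6 to 35.3). For either list together the lost regions stood at 56.8%, 23.9 points below the members (21.4 to 26.3).

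Peak strength at day 7 moved with this difference, since stronger regions were kept more often and shared more often. By 20% bands of the day 7 full-thickness list, from weakest to strongest score, the share kept was 8.09%, 12.2%, 17.0%, 27.0% and 43.4%. Within each band the day 7 partial-thickness list held more of the members than of the lost regions, at 42.0% against 20.4%, 61.3% against 30.7%, 68.6% against 45.3%, 85.1% against 65.2% and 91.1% against 79.6%. The interval of the difference lay above 0 in all 5 bands, at its nearest in the strongest (11.5 points, 0.879 to 21.4). For the day 3 list the difference was 11.1 points (5.23 to 17.1) and 16.6 points (11.0 to 21.8) in the weakest bands. It was 4.42, 3.82 and 2.03 points in the other 3, where each interval included 0. With the lost regions weighted to the members' band sizes, the day 3 shares were 71.2% against 62.3% and the day 7 shares 65.1% against 41.7%. The difference at day 7 was thus larger than at day 3 on this scale, although the difference between the days was not tested.

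**Figure D2:**
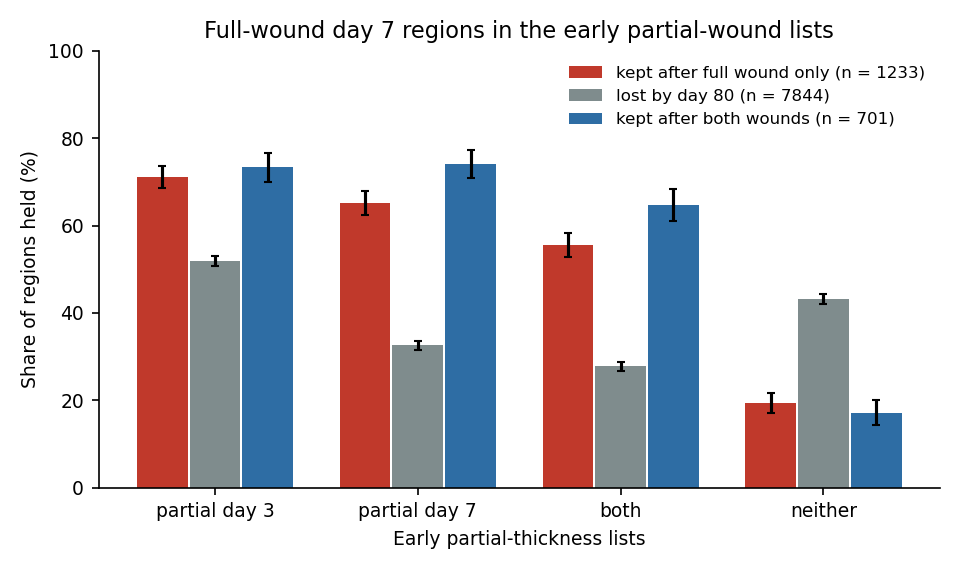
Share of regions (y axis, percent) held by the partial-thickness list of day 3, of day 7, by both or by neither (x axis), with exact 95% intervals for counting error as bars. Members (red, n = 1233) stood above the regions lost by day 80 (grey, n = 7844) in the first 3 groups, at 71.2% against 52.0%, 65.1% against 32.6% and 55.6% against 27.8%.

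**Figure D3:**
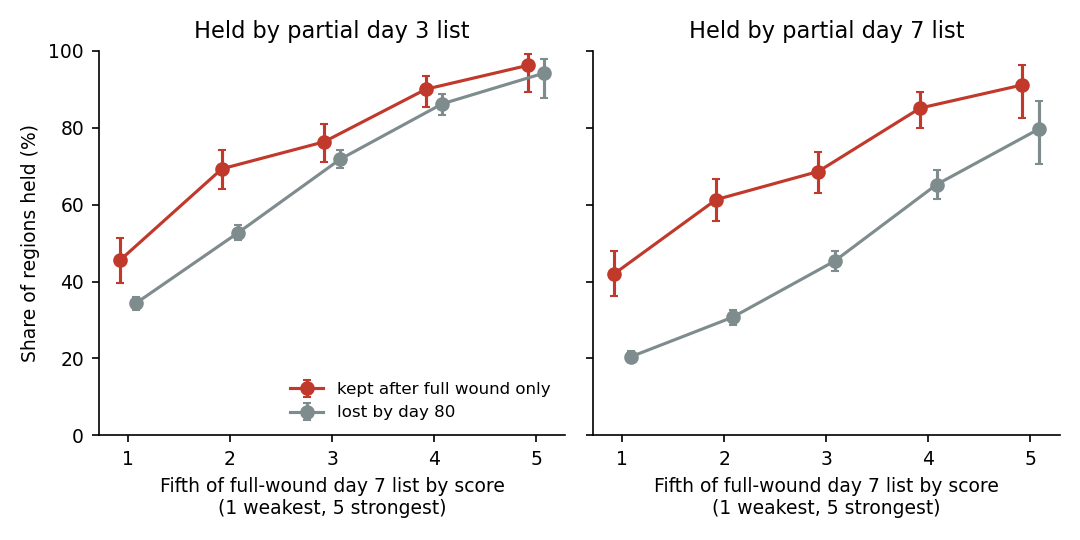
Share of regions held by the day 3 (left) and day 7 (right) partial-thickness list (y axis, percent) in 5 bands of score in the day 7 full-thickness list (x axis, weakest to strongest), with exact 95% intervals. Members (red) lay above lost regions (grey) in every band at day 7, from 42.0% against 20.4% to 91.1% against 79.6%.

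The closest class was the 701 regions that both wound types kept at day 80, chosen like the members but with the day 80 partial-thickness list holding them. At day 3 the partial-thickness list held 73.5% of these, and the members differed by -2.26 points (-6.32 to 1.93), an interval that includes 0. At day 7 it held 74.2%, and the members were lower (-9.05 points, -13.2 to -4.8). The share held at both days was 64.8%, again with the members lower (-9.13 points, -13.6 to -4.59). For either list the difference was -2.18 points (-5.66 to 1.45). Day 3 alone held 8.7% of this class and 15.6% of the members, whose intervals (6.72 to 11.0 and 13.6 to 17.7) did not overlap.

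The 238 members that neither early partial-thickness list held were weaker at day 7 than the others. Their median percentile in the day 7 full-thickness list was 19.7, against 50.7 for the 686 members that both early lists held, with 34.6 for day 3 alone and 29.6 for day 7 alone. At day 80 the medians were closer, at 18.8, 24.1, 15.0 and 24.6 in the same order. A protein-coding gene body was overlapped by 148 of the 238 (62.2%, 55.7 to 68.4), an interval that covers the 57.8% of all joined regions and overlaps that of day 3 alone (55.2%, 47.9 to 62.4). Among the 686 held by both it was 46.2% (42.4 to 50), and among those of day 7 alone 43.6% (34.4 to 53.1). Of the 12 members with the highest score in both full-thickness lists, taking the lower of their percentiles, 12 were in the day 3 and 10 in the day 7 partial-thickness list. In the strongest 20% band of the day 7 full-thickness list, these lists held 96.2% and 91.1% of members, and 94.2% and 79.6% of lost regions. In the next band they held 90.0% and 85.1% of members, so these counts do not set the 12 apart.

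Those 12 strongest members had percentiles of 68.6 to 87.6 in the weaker of the full-thickness lists, and 3 of them had no protein-coding gene within 50 kb. The first, chr6:142191631-142192604, lay 5454 bp from Slco1a6, an organic anion transporter. Its fold enrichment after the full-thickness wound was 12.3 at day 7 and 13.8 at day 80, and after the partial-thickness wound 10.4 at day 3 and 10.2 at day 7. The region in Eef2k, the kinase of translation elongation factor eEF2 (chr7:120897084-120898254), had the highest day 80 percentile of all members at 88.4, with folds of 10.2 at day 7 and 15.5 at day 80. Its partial-thickness peaks were weaker by rank, at percentiles of 31.1 and 14.6. The region in Phactr1, a regulator of actin and of protein phosphatase (chr13:43032091-43032919), had a fold of 13.9 and then 13.6, and only the day 3 partial-thickness list held it besides. The other strong members lay in Kdm4b, a histone demethylase, Cntnap5b, a neurexin-family adhesion protein, Ddah1, which breaks down dimethylarginine, and Ank2, an ankyrin, or within 50 kb of the death receptor Tnfrsf21 and of Eps8l3. The 3 without a gene nearby were chr11:17385819-17387385, chr4:93881246-93882002 and chr1:186474157-186475105. The last of these was at percentile 90.4 in the day 7 partial-thickness list, above its 79.2 and 72.7 in the full-thickness lists.

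Members were seldom at promoters, as were the lost regions. A start site lay inside 65 of the 1194 members on chromosomes with start sites in the table (5.44%, 4.23 to 6.89), against 16.4% of all joined regions there and 3.9% of lost ones (3.48 to 4.37). Within 1 kb of a start site or gene end lay 128 members (10.4%, 8.73 to 12.2), against 23.4% of all regions. Lost regions were close to the members, at 9.63% (8.98 to 10.3), and those kept after both wounds stood at 15.8% (13.2 to 18.8). The choice removed every region of the unwounded lists, so all regions are not a like baseline. A protein-coding gene was overlapped by 622 (50.4%, 47.6 to 53.3), against 57.8% of all and 53.0% of lost regions (51.9 to 54.1). No such gene lay within 50 kb of 234 members (19.0%, 16.8 to 21.3), against 16.5% of all, 15.1% of lost regions (14.3 to 15.9) and 9.84% of those kept after both wounds (7.74 to 12.3). The intervals of this last share do not overlap between members and either of those classes, so members lay away from genes more often. The median distance to a start site was 22365 bp in members, 20780 bp in lost regions and 15383 bp in those kept after both wounds. Exon, intron and UTR positions were not analysed here.

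By the choice no member overlaps a peak of the 4 excluded lists, and the distance to the nearest such peak was much the same as for lost regions. Its median was 9383 bp in members and 9589 bp in lost regions. It was within 5 kb for 367 members (29.8%, 27.2 to 32.4) and for 30.7% of lost regions (29.7 to 31.8). Only 16 members had one within 500 bp, and counting these as present left 1217 members.

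At the 65 start-site members, 45 held a protein-coding start and 20 held long non-coding RNA starts only. The day 3 partial-thickness list held 46 of the 65 and the day 7 list 36, beside 71.2% and 65.1% of all 1233 members. Of the 8 strongest, Gm33094, Gm33741, Gm36823, Gm33519 and Gm38722 are long non-coding RNAs, and Baiap2, an actin-scaffold protein of membrane protrusions, shared its region with the opposed non-coding gene Gm11767. At Kcnn4 the promoter region (chr7:24369677-24370529) had folds of 6.75 (day 7) and 8.51 (day 80) after the full-thickness wound, and of 6.36 (day 3) and 8.51 (day 7) after the partial-thickness wound. At Hephl1 (chr9:15111788-15112658) they were 9.38 and 9.14, with 9.66 in the day 7 partial-thickness list and no peak at day 3. At Cstdc3 they were 9.26 and 10.5, with 9.48 at day 3 of the partial-thickness wound and no peak at day 7. At Gm39473 they were 10.9 and 8.89, and the partial-thickness peaks of days 3 and 7 ranked high in their lists, at percentiles 92.3 and 86.1. The involucrin promoter was weak in all 4 lists, with folds of 6.46 and 6.17, and of 7.45 and 7.98 after the partial-thickness wound. Its percentiles in the full-thickness lists were 6.38 and 9.99.

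Each region was given to its closest protein-coding gene, up to 50 kb away, which says where it lies and not what it acts on. This gave 999 members (81.0%, against 83.5% of all regions) at 907 of 15020 genes, 822 of which had 1 member, 79 had 2, 5 had 3 and 1 had 4. Members made up 1.89% of all assigned regions. Of the 907 genes, 808 (89.1%) had another region in at least 1 of the 4 excluded lists, and 99 (10.9%) had none there. The first share was 93.3% over all 15020 genes and 86.5% over the 4362 genes with a region lost by day 80. Within 50 kb of another member lay 167 members in 78 clusters, 68 of them with 2, 9 with 3 and 1 with 4. No such count is given here for other regions, so no tendency to cluster is read from it.

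The cluster of 4 lay inside Tulp4, a tubby-family gene (gene ID 68842, chr17:6106253-6240637), over 50125 bp. These were 4 of its 10 regions. Its start-site region was in all 8 lists. The gene had 7 regions in each full-thickness list, 4 of them the members, and the lists that the choice left free had 7 at day 3 and 6 at day 7 of the partial-thickness wound. The 4 excluded lists, which by the choice hold no member, had 2 or 3. The strongest of the 4, chr17:6202258-6203426, had folds of 9.33 and 9.08 at days 7 and 80 of the full-thickness wound and 9.36 and 12.1 at days 3 and 7 of the partial one. The region chr17:6174556-6175230 was in the full-thickness lists alone, with 6.82 and 6.09. The other 3 were in both early partial-thickness lists. Between members, the region at chr17:6172828-6173529 was held in the unwounded and day 80 lists and in no early wound list.

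Fto, an RNA demethylase gene (gene ID 26383, chr8:91313367-91668433), had 3 members among 19 regions, all within 24043 bp. The outer 2 were in both early partial-thickness lists and the middle one was not. Their day 80 folds were 8.51, 4.6 and 4.64, after 8.55, 6.09 and 6.42 at day 7. Eya4, a transcriptional coactivator with phosphatase activity (gene ID 14051, chr10:23102962-23350838), had 4 regions, and none was in an unwounded or partial-thickness list. Its members chr10:23156891-23157604 and chr10:23176403-23178184 had folds of 8.03 and 9.13 at day 7 and 7.1 and 9.9 at day 80. The other Eya4 regions were in 1 full-thickness list each.

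**Figure D4:**
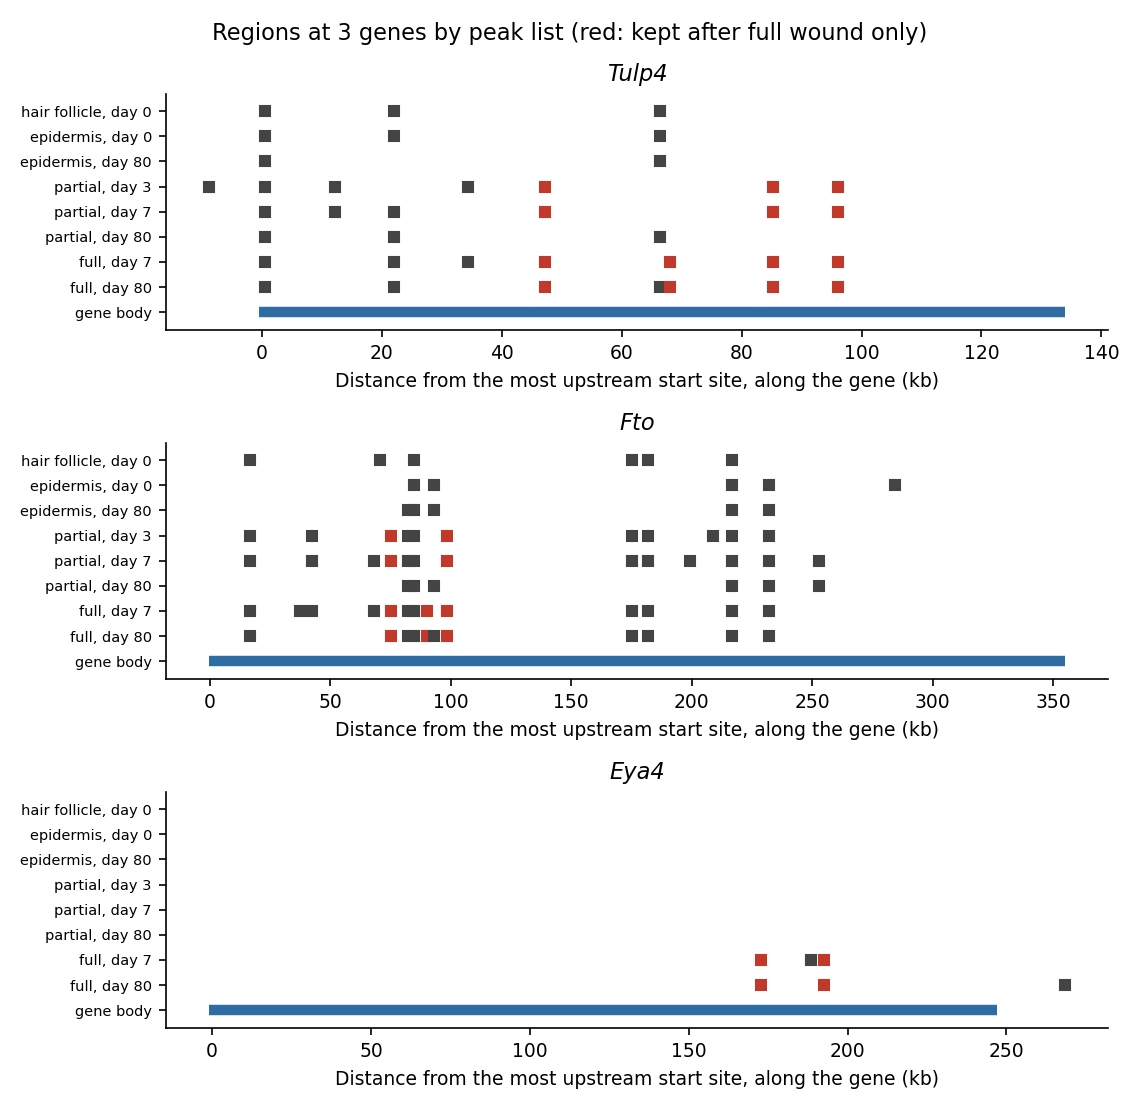
Joined regions (squares, not to width) at Tulp4, Fto and Eya4 by peak list (rows), against distance from the most upstream start site along the gene in kb (x axis), with the gene body in blue. Members (red) appear in both full-thickness lists and in none of the unwounded or day 80 partial-thickness lists; Eya4 has squares in the full-thickness lists only.

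Ubash3b, a tyrosine phosphatase, had 3 members of 12 regions, Pdzrn4, a RING-finger protein, 3 of 14, Med13l, a Mediator subunit, 3 of 17, and Pde4d, a cyclic AMP phosphodiesterase, 3 of 48. All 3 members at Pdzrn4 were in the day 3 partial-thickness list and 1 of them in the day 7 list. At Med13l only chr5:118649317-118650467 was in the early partial-thickness lists, and the other 2 were in the full-thickness lists alone. Among genes with 2 members, both regions of Pkd2l2, a polycystin-family gene, were members. Cyp7b1, an oxysterol hydroxylase, had 2 of 3, and its remaining region, across the gene's upper coordinate boundary, was also in the day 80 partial-thickness list. Kcnn4, Pomgnt2, a glycosyltransferase of dystroglycan, and Spocd1 each had 2 of 3 as well. The remaining Kcnn4 region was in all 3 unwounded lists.

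Genes of inflammation had 6 members among 31 regions that were kept or lost by day 80 (19.4%, against 13.6% over all such regions). They lay at 5 of 29 listed genes. Nfkb1, which encodes the p105 precursor of NF-kB, had 2 of its 21 regions among them. Its member chr3:135623138-135624121 had folds of 5.88 and 5.62 in the full-thickness lists, and chr3:135658344-135659214 had 8.51 and 5.67. Both were near the bottom of the day 80 list, at percentiles 3.64 and 1.63. Relb, an NF-kB subunit of the non-canonical pathway, had chr7:19618935-19619790 with 9.2 and 7.7, held by both early partial-thickness lists. Cxcl5, a neutrophil chemokine, had chr5:90753857-90754463 with 7.28 and 5.67, in no early partial-thickness list. The other 2, at the chemokine gene Cxcl1 and the DNA sensor gene Aim2, stand outside the naming rule. Map3k14, the NF-kB-inducing kinase that acts above Relb, was on no list and was named after its values were seen. It had 2 members of 10 regions, with folds of 11.1 and 7.38 at chr11:103236548-103237521 and of 9.13 and 9.65 at chr11:103246040-103247224. A further 4 Map3k14 regions were lost by day 80. Another 4 genes of the NF-kB pathway were looked up in the same way, and Bcl3, Birc3, Nfkbie and Traf3 had 0 members among 4, 5, 1 and 5 regions.

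AP-1 and stress genes had 3 members of 12 kept or lost regions (25%), at Jun, Fos and Maff, a small Maf factor. The Jun region chr4:95084078-95084707 had folds of 5.54 and 7.15, and the Fos region chr12:85497532-85498270 had 6.48 and 9.3. The Maff region chr15:79356974-79358161 had 6.92 and 5.67, the latter at the bottom of its list (percentile 1.63). Only the Jun region was in an early partial-thickness list, that of day 3. Nfe2l2, the antioxidant response factor, was also named after its values were seen. It had 2 members of 6 regions, both at percentile 1.63 in the day 80 list.

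Cytokine and STAT genes had 3 of 6 kept or lost regions (50%), at Stat5b, Jak1 and Il4ra, the receptor chain for interleukins of the type 2 response. The Il4ra member chr7:125539153-125539885 ranked highest of these, with folds of 7.19 and 10.9 and percentiles of 71.9 and 64.0. It was also in both early partial-thickness lists, at 8.26 and 10.3. At day 80 the Stat5b member was at the bottom of the full-thickness list (percentile 1.63) and the Jak1 member at percentile 15.0. Wnt and hedgehog genes had 4 of 12 (33.3%): 2 at Gli2 and 1 each at Gli3, both transcription factors of the hedgehog pathway, and at the ligand gene Wnt3. The Gli3 member chr13:15550462-15551539 had folds of 14.3 at day 7 and 10.2 at day 80, and 11.7 and 15.0 in the early partial-thickness lists. Interferon genes had 1 of 8, at Irf2. With counts of this size a list's share moves widely with 1 region, and no list was tested.

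Some lists had many regions lost by day 80 and few kept. ETS and Runx factors had 1 of 38 kept (2.63%), at Elk3. Integrin and adhesion genes had 1 of 33 (3.03%), at Itgav, the integrin alpha-v chain. Notch pathway genes had 0 of 18. EGF receptor pathway genes had 1 of 18 (5.56%), at Egfr itself, and wound epithelium genes 1 of 20 (5.0%), at the collagenase gene Mmp13. The Mmp13 member chr9:7261266-7262718 had folds of 8.34 and 7.58, while 3 other regions of the gene were lost. BMP and TGF-beta genes had 1 of 15 (6.67%), at the inhibitor Smad7. Other lists were nearer the 13.6% kept over all such regions. Hippo pathway genes had 2 of 11 (18.2%), both in Vgll4, a TEAD cofactor, and both in the early partial-thickness lists. The list of plasticity genes had 1 of 8 (12.5%), at Cdh1, the E-cadherin gene.

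Identity genes of the skin epithelium were represented by single regions. Basal keratinocyte genes had 2 of 16 kept (12.5%), at the integrin genes Itga3 and Itga6 of the hemidesmosome and basal adhesion. Epidermal stem cell genes had 2 of 8 (25%), at Klf5 and Ovol1. The Ovol1 gene, a repressor in epidermal differentiation, had no region in any unwounded list, and its member chr19:5538182-5539361 had folds of 6.28 and 7.38. Terminal differentiation genes had 2 of 7 (28.6%), at Ivl and at Dsc1, a desmosomal cadherin. Hair follicle stem cell genes had 0 of 10, although 164 joined regions lay at these 16 genes. Nuclear receptor genes had 3 of 16 (18.8%), at Ppard, Thrb and Rarb. The Ppard member chr17:28259750-28260990, in a lipid-sensing receptor gene, had folds of 4.97 and 8.37 and lay in both early partial-thickness lists. Proliferation genes had 2 of 10 (20%), at Cdk6 and Cdkn2a, which encodes cell cycle inhibitors. Housekeeping genes had 0 of 2.

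**Figure D5:**
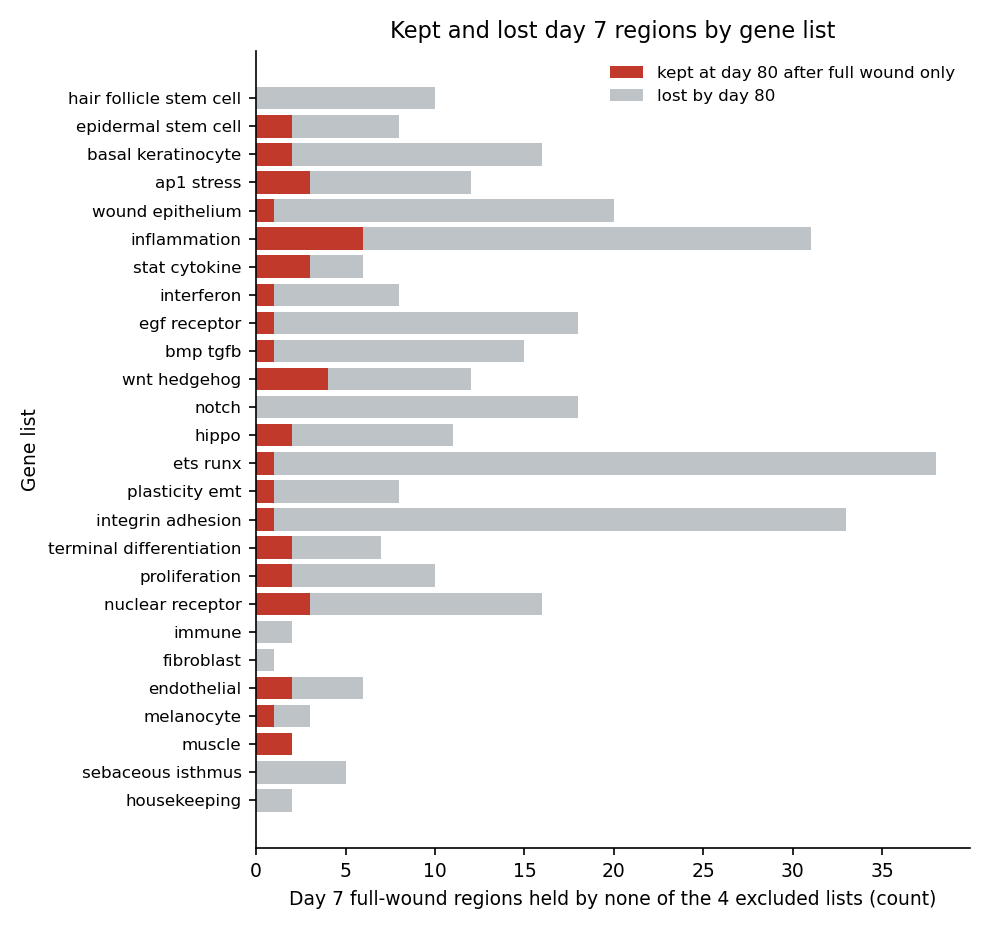
Number of day 7 full-thickness regions held by none of the 4 excluded lists (x axis) at the genes of each of 26 lists (y axis), split into those kept at day 80 (red, members) and those lost (grey). Inflammation had the most kept regions with 6 of 31, while ETS and Runx factors had 1 of 38 and Notch genes 0 of 18.

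Markers of other cell types that a sort could carry over were counted in the same way, as members among regions kept or lost, beside 13.6% over all such regions. Muscle genes had 2 of 2 (100%), melanocyte genes 1 of 3 (33.3%) and endothelial genes 2 of 6 (33.3%), while immune genes had 0 of 2, fibroblast genes 0 of 1 and sebaceous gland and isthmus genes 0 of 5.

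The muscle members lay at Tnnt3, which encodes a troponin, and Pax7, the satellite cell factor. They made up 22.2% of the list's 9 regions, against 1.89% of all assigned regions. Its genes had 1 to 6 regions in a list, with none at Acta1 or Ttn and, in the full-thickness lists, none at Myod1, Myog or Myh1 and 1 at Des at day 7 only. The melanocyte member was in Mlana (chr19:29699605-29700023), with folds of 9.42 and 12, in no early partial-thickness list. The list's genes had 9 to 14 regions in a list, 24 in all. At days 7 and 80 of the full-thickness wound Mitf had 5 and 5, Dct 3 and 2, and Sox10 and Tyrp1 1 at each day, with none at Tyr, Pmel or Kit.

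The endothelial members were at Erg and Pecam1, which had 3 and 5 and 8 and 7 regions in the full-thickness lists of the earlier and later day. Vwf had 4 and 4 and Tie1 2 and 0, while Cdh5, Tek, Kdr and Emcn had none there. The list's genes had 9 to 26 regions in a list, 42 in all. Immune genes had 2 to 6 regions in a list, 12 in all. At days 7 and 80 of the full-thickness wound Itgam had 2 and 2, Cd3e 1 and 1, Spi1 2 and 0 and Ptprc, the pan-leukocyte gene, 1 and 0, and the other 7 found genes had no region in any list. Fibroblast genes had 5 to 15 regions in a list, 28 in all. Thy1 had 2 and 3, Pdgfra 2 and 2, Dpt 1 and 2, Col1a1 1 and 1, and Fbn1 and Dcn 0 and 1, with none at Col1a2, Col3a1, Pdgfrb or Lum. The part of other cells in the 5 members named here, or in the other members, was not tested.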

How the data were processed

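Open chromatin of 24 samples in 8 groups was read from 8 deposited peak lists, 1 per group, on the mm10 build. Bowtie, Picard, bedtools 2.29.2 and MACS2 2.1.1.20160309 are named, per the submitters' processing notes, with no role or order. The sources used here do not state whether samples were pooled for peak calling, nor the sort gates. Each peak has a score deposited by the authors, a fold enrichment (a ratio over local background) as deposited, and a deposited −log10 p. These rank and describe peaks within their own list only. Read depth is unknown.

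All 267990 peaks were joined where they overlapped, in Python 3.11.15 (pandas 2.3.3, numpy 2.4.6, scipy 1.17.1, matplotlib 3.10.9). The members, the gene lists and the settings were chosen with earlier results of these data known. Shares carry exact 95% intervals and differences of shares Newcombe intervals. No group difference was tested, since each group has 1 list. The script was tested on simulated peak lists. Regions lost by day 80 were those of the day 7 full-thickness list that neither the day 80 full-thickness list nor the 4 excluded lists held.

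Genes (21896 protein-coding) and 32851 start sites of 27025 genes came from RefSeq tables of GRCm38.p6. Where several genes were equally near, the shortest was taken. Start sites on chromosome 18, with 39 members, were not used here. Of 376 listed genes in 26 lists, 375 were found. Named were the 12 genes with the most members (ties by the share of members, then alphabetically), up to 3 genes of each list in the same order, the 12 strongest members and up to 8 start-site members. Promoter windows were searched for 9 motifs. Alternatives were a cover of 50% of the region, a summit in the region, full-thickness peaks in the upper 50% by score, lists of equal length (29365 peaks), a tolerance of 500 bp, leaving out the day 0 epidermal list, and other gene distances.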

Additional observations from a re-analysis of the deposited data

How the results depend on the processing

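No value changed direction under the alternatives run. Asking peaks to cover 50% of a region gave 404 members, and 85 remained when full-thickness peaks had to lie in the upper 50% of their list. Of the 404, 320 were among the 1233, and this rule kept 37.5% of the regions of the day 80 full-thickness list, whose peaks are narrow. Under these settings and with lists of equal length, the day 3 partial-thickness list held 61.4%, 89.4% and 67.3% of the members, and the day 7 list 60.9%, 85.9% and 61.7%. The difference of members from lost regions in either early list was 13.7 points with 50% cover and 10.5 points in the upper 50%, both intervals above 0 (9.19 to 17.8 and 3.47 to 14.0). The cause of these shifts was not tested. Within 5 kb of a start site or gene end lay 25.8% of members by the wider distance, with no share over all regions given here to set beside it. Equal lists gave 872 members, and gene windows of 10 kb and 100 kb placed 777 and 1103 at a gene. A summit in the region gave the same values by construction, since a joined region contains its whole peaks.

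No paired analysis was possible because each group has 1 peak list with no values per sample, and leaving out each replicate was not possible for the same reason. At day 80, 25.2% of members lay in the lowest 10% of the full-thickness list.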

Other observations

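The day 80 full-thickness list also held 1386 regions that were missing from the day 7 full-thickness list and from the same 4 lists. The day 3 partial-thickness list held 11.1% of them (exact 95% interval 9.5 to 12.9), against 56.6% of all joined regions. Its day 7 list held 14.4% (12.6 to 16.3), against 55.0% of all. Either list held 19.5% (17.4 to 21.7), and 80.7% of the 1233 members. The later regions were chosen by absence from the day 7 full-thickness list and the members by presence in it. That list shared most of its regions with each early partial-thickness list, so no conclusion is drawn from this contrast.

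On the X chromosome lay 16 members (1.3%, 0.743 to 2.1), 44 of the regions lost by day 80 (0.561%, 0.408 to 0.752) and 1 of the 701 kept after both wounds (0.143%, 0.00361 to 0.792), against 1.97% of all joined regions. The sex of the mice was not used here.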
